A study of Mus musculus with 12 samples.

Results

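The muscarinic and alpha-adrenergic receptor genes were described in sorted mouse sensory neurons: Chrm1, Chrm2, Chrm3 and Chrm4 of the muscarinic family, and Adra1a, Adra1d, Adra2a, Adra2b and Adra2c of the alpha-adrenergic family. They were taken by name, 9 of the 41388 genes in each deposited count table, and all 9 had a row. Cells came from dorsal root ganglia of C57BL/6 mice aged 3 months, at lumbar level 6 with sacral level 1 (L6S1) or at lumbar levels 3 to 5 (L345), and were sorted for EGFP. There were 12 libraries in 4 groups of 3: female L6S1 (A, B and C), female L345 (B, C and D), male L6S1 (A, B and C) and male L345 (A, B and C).

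All 4 groups shared the genotype per the source names of their libraries, and the labels name no drug or injury. The mice were heterozygous for RetFloxedEGFP, a knock-in at the Ret locus in which EGFP is expressed once Cre has cut out the floxed Ret sequence, and they carried Cre knocked into Scn10a, which encodes the NaV1.8 sodium channel. The sorted cells were thus those with an active Ret locus in which Scn10a-driven Cre had acted, which in these ganglia are small unmyelinated neurons per the series' design text, and each had lost a copy of Ret. The genotype labels of 4 libraries (female L6S1 B and C, female L345 D and male L6S1 C) name only 1 of the 2 alleles, and their titles carry an abbreviation (9cGNAV or 9CGNAV) in place of the RetFloxEGFP-NaV1.8Cre of the other titles, whereas their source names give both alleles. These 4 libraries also belong to a later submission than the other 8. Each library was a pool of 2 to 8 mice and 12 to 32 ganglia, so the spread between libraries is a spread between pools. The sources used here do not say whether L6S1 and L345 pools had any mice in common.

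Muscarinic receptors answer acetylcholine and alpha-adrenergic receptors answer noradrenaline and adrenaline. Each receptor couples mainly to 1 of 2 classes of G protein. Chrm1 and Chrm3 encode the M1 and M3 receptors and Adra1a and Adra1d encode alpha1 receptors, which act through Gq on phospholipase C and the release of calcium from stores. Chrm2 and Chrm4 encode the M2 and M4 receptors and Adra2a, Adra2b and Adra2c encode alpha2 receptors, which act through Gi and Go to lower cyclic AMP, open GIRK potassium channels and close N-type calcium channels. In sensory neurons M2 receptors are known to reduce the excitability of nociceptor endings, and alpha-adrenergic receptors are known for the coupling of sympathetic and sensory fibres after nerve injury.

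The smallest library (female L6S1 A) held 16176436 counts and the largest (female L345 D) 26694404, so that 3 counts, used as the floor, amount to 0.111 to 0.183 CPM (counts scaled to the library total). CPM values below are also scaled by TMM, a normalisation for library composition. The sort genes were abundant, with Scn10a at 429.1 ± 66.4 CPM at L6S1 and 573.1 ± 96.0 CPM at L345 and Ret at 165.2 ± 33.6 CPM at L6S1 and 175.8 ± 27.5 CPM at L345 (SD, n = 6 each). Both missed the test between levels. Markers of other cells were present. Summed over 6 fibroblast markers, of which none was at 0, the level was 126 to 331 CPM at L6S1 and 69 to 93.1 CPM at L345. Summed over 6 macrophage markers it was 4.04 to 22.4 CPM at L6S1 and 2.03 to 2.89 CPM at L345. The sum of 8 satellite glia markers, of which none was at 0, was 921 to 1870 CPM at L6S1 and 1330 to 1810 CPM at L345, with female L6S1 B (921) and C (1030) lowest. Of 7 sympathetic neuron markers, Phox2a had no read in any library, and the sum of all 7 was 13.1 to 33.2 CPM at L6S1 and 19.0 to 30.0 CPM at L345, nearly all of it Slc18a2. The part of these cells in the results below was not tested.

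The receptors that couple to Gi made up most of the receptor transcript per length. On a scale per kilobase of the deposited gene length (RPKM, computed from TMM-scaled CPM), Chrm4 led with 2.71 ± 0.974 RPKM (SD, n = 12; range 1.19 to 5.06), and Chrm2 followed with 2.31 ± 0.648 RPKM (range 1.15 to 3.17). Chrm4 lay above Chrm2 in 7 of 12 libraries, so the order of these 2 was not fixed. Adra2b came next at 0.824 ± 0.307 RPKM, below Chrm2 in 12 of 12 libraries, and Adra2c at 0.333 ± 0.102 RPKM, below Adra2b in 11 of 12. Together, Chrm2 and Chrm4 held 74.1 ± 4.79% of the summed RPKM of the 9 genes (range 64.1 to 80.3%) and the 3 alpha2 genes 20.0 ± 5.0% (range 13.4 to 31.2%).

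The receptors that couple to Gq were scarce. Chrm1 had 0.183 ± 0.0771 RPKM, Adra1d 0.157 ± 0.0682 RPKM, Chrm3 0.0532 ± 0.0462 RPKM and Adra1a 0.00845 ± 0.00981 RPKM (SD, n = 12 each). Chrm1, the alpha2 gene Adra2a (0.165 ± 0.0726 RPKM) and Adra1d did not have a fixed order: Chrm1 lay above Adra2a in 6 of 12 libraries and Adra2a above Adra1d in 4 of 12. Adra1d lay above Chrm3 in 12 of 12 libraries and Chrm3 above Adra1a in 11 of 12. Chrm1 and Chrm3 held 3.43 ± 1.48% of the summed RPKM and the 2 alpha1 genes 2.47 ± 1.04%. The deposited length of Chrm4 was 1440 bases, the length of a coding exon without untranslated sequence, whereas that of Chrm2 was 6053 bases. Their order holds for these gene models only.

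**Figure D1:**
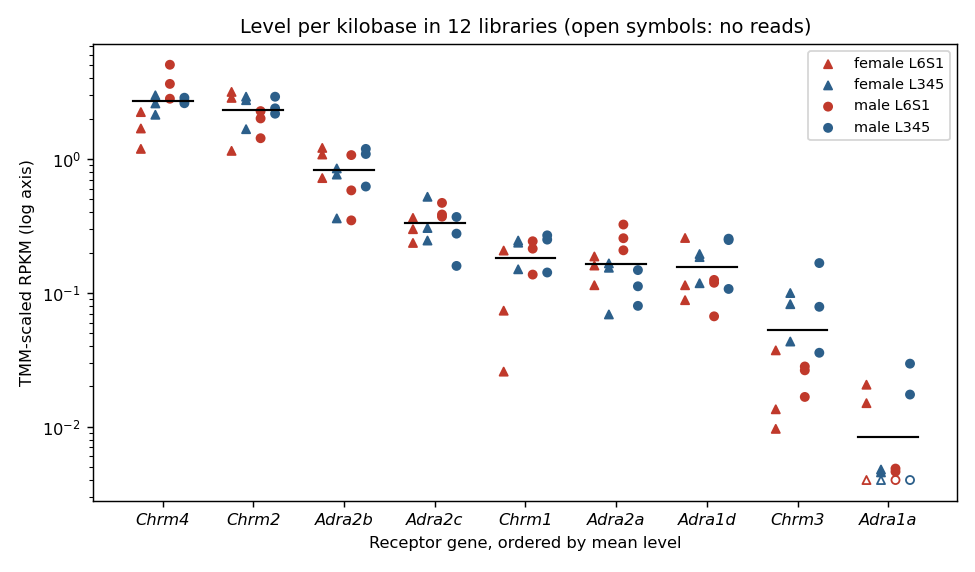
Level of each receptor gene in the 12 libraries, in TMM-scaled RPKM on a log axis, with genes ordered by mean (black line); triangles are female and circles male libraries, red is L6S1 and blue L345, and open symbols at the lower edge mark libraries with no read. Chrm4 and Chrm2 share the top with means of 2.71 and 2.31 RPKM, and Adra1a is at the bottom with 0.00845 RPKM.

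The members are close relatives, and a stretch of their coding sequence is shown to let the counts be judged. All 9 carry the codons of an aspartate-arginine-tyrosine motif in frame (GAC or GAT, then CGN, AGA or AGG, then TAC or TAT), which in this receptor class lies at the inner end of the third membrane helix and takes part in the switch to the active state. Of 21764 mouse coding sequences searched, 1768 (8.12%) held these 9 bases in frame, so the match alone does not mark a receptor. Each line gives 57 bases of the coding strand, 5′ to 3′, with the motif codons in capitals, from the GENCODE M21 transcripts on GRCm38. The windows lie in coding exons at chr19:8678272-8678328 (Chrm1, + strand, exon 2), chr6:36523543-36523599 (Chrm2, + strand, exon 3), chr13:9878477-9878533 (Chrm3, - strand, exon 1) and chr2:91927606-91927662 (Chrm4, + strand, exon 1). Those of the alpha2 genes lie in exon 1 at chr19:54046623-54046679 (Adra2a), chr2:127363880-127363936 (Adra2b) and chr5:35280303-35280359 (Adra2c), all on the + strand.
Chrm1: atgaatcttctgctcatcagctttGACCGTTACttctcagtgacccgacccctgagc
Chrm2: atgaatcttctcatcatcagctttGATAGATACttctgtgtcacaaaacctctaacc
Chrm3: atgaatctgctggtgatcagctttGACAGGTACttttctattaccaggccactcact
Chrm4: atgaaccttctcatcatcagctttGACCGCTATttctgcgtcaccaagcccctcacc
Adra2a: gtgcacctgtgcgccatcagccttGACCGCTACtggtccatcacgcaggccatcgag
Adra2b: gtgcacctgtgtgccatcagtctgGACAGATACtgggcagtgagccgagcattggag
Adra2c: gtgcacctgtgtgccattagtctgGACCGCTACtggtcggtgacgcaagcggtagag

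Within these windows the Gi-coupled pair Chrm2 and Chrm4 were identical at 82.5% of bases, Adra2c and either other alpha2 gene at 80.7%, and Adra2a and Adra2b at 71.9%. The Gq-coupled Chrm1 was identical to Chrm4 at 77.2%, to Chrm2 at 75.4% and to the other Gq-coupled muscarinic gene, Chrm3, at 73.7%, so that identity here did not follow the G protein in every pair. The longest exact run shared by any 2 of the 9 coding sequences was 29 bases, between Chrm1 and Chrm4. No stretch of 50 bases of the transcripts of Chrm3, Chrm4, Adra2a, Adra2b or Adra2c occurred in a transcript of another gene. Transcripts of the other 4 shared 0.39% (Adra1a), 1.42% (Chrm2), 4.32% (Chrm1) and 5.35% (Adra1d) of their 50-base stretches with other genes. For Chrm1, Chrm2 and Adra1d the partner was a gene on the opposite strand (Gm22820, 9330158H04Rik and Gm14285), which overlapped 5.1%, 2.3% and 7.7% of the deposited exon bases. The sources used here do not give the strand setting of the counting, and reads in those stretches cannot be told apart from those of the partner.

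The comparison of L6S1 with L345 sets neurons of ganglia that also serve the pelvic organs against those of ganglia that serve the hindlimb. No receptor passed the test in either direction. Of 15281 genes tested with edgeR's quasi-likelihood test across the 12 libraries, 356 (2.33%) passed at a Benjamini-Hochberg adjusted p under 0.05, and of the 9 receptors 7 entered the test and 0 passed. At an unadjusted p under 0.05, 26.6% of all genes and 1 receptor, Adra2a, lay past the threshold. By direction, 222 genes (1.45%) were higher at L6S1 and 134 (0.877%) lower. The median log2 fold change (L6S1 over L345) of the 7 receptors was -0.057, against -0.0572 for all genes tested. Chrm3 and Adra1a fell below the filter on low counts and had no place in the test. In bulk samples, fewer cells of a type and less RNA per cell cannot be told apart.

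The M2 receptor gene Chrm2 (chr6:36388084-36528414) had the most reads of the 9, 167 to 399 per library at L6S1 and 272 to 472 at L345. In females it had 19.2, 17.3 and 6.99 CPM in L6S1 A, B and C, against 17.7, 16.6 and 10.1 CPM in L345 B, C and D. In males it had 13.8, 12.2 and 8.68 CPM in L6S1 A, B and C, against 13.2, 17.7 and 14.5 CPM in L345 A, B and C. Groups overlapped in both sexes, and female L6S1 C was the lowest library of all. The log2 fold change over both sexes was -0.21 ± 0.23 (SE; 95% interval -0.71 to 0.29; edgeR adjusted p = 0.574).

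The M4 receptor gene Chrm4 (chr2:91927249-91928688) had a level effect of opposite sign in the sexes, as had Adra2b and Adra2c, and over all 12 libraries the difference between the sexes passed the test in none of them. In females it had 3.23, 2.43 and 1.72 CPM in L6S1 A, B and C, against 3.75, 3.08 and 4.30 CPM in L345 B, C and D. In males it had 5.24, 4.06 and 7.29 CPM in L6S1 A, B and C, against 3.91, 3.75 and 4.14 CPM in L345 A, B and C. In each sex 1 L6S1 library lay within the L345 range. All 3 female L6S1 libraries were below the female L345 mean and all 3 male L6S1 libraries above the male L345 mean. The log2 fold change was -0.61 ± 0.29 in females (edgeR adjusted p = 0.212), 0.49 ± 0.28 in males (edgeR adjusted p = 0.59) and -0.06 ± 0.20 over both (95% interval -0.48 to 0.37; edgeR adjusted p = 0.868).

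The difference between the sexes in the level effect on Chrm4, female minus male, was -1.10 ± 0.40 on the log2 scale (95% interval -1.95 to -0.24). Its unadjusted p was 0.0154 and its edgeR adjusted p 0.871. No gene of the 15281 passed that test (0%), and 714 (4.67%) had an unadjusted p under 0.05. In the first submission by itself (8 libraries, with 1 of female L6S1, assumed to vary like the other groups), the difference was -0.36 ± 0.41 (edgeR adjusted p = 1.00), and without female L6S1 B and C it was -0.70 ± 0.43 (edgeR adjusted p = 0.949). Marker sums differed between these libraries too. The satellite glia sum was 921 to 1380 CPM in female L6S1 and 1380 to 1870 CPM in male L6S1 libraries. The fibroblast sum went the other way, with 287 to 331 CPM in female L6S1 and 126 to 183 CPM in male L6S1 libraries. The part of these cells in the result was not tested. Averaged over levels, the log2 difference of Chrm4, female minus male, was -0.63 ± 0.20 (unadjusted p = 0.00664, edgeR adjusted p = 0.764), in a test that 9 genes (0.0589%) and 0 receptors passed. Without female L6S1 A that difference of Chrm4 passed (edgeR adjusted p = 0.0360), whereas the difference in the level effect did not (-1.34 ± 0.39, edgeR adjusted p = 0.0707). The all-gene count between the sexes in that fit is not given here.

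Since Chrm2 and Chrm4 share their G protein class, their ratio was followed as well. Chrm2 over Chrm4, as a ratio of RPKM, ranged from 0.283 to 1.70 at L6S1 and from 0.558 to 1.28 at L345, with means of 0.950 and 0.953. The summed RPKM of both was 4.93 ± 1.45 at L6S1 and 5.13 ± 0.365 at L345 (SD, n = 6 each). The L6S1 libraries were more spread out in both measures, and their range held the whole L345 range.

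The M1 receptor gene Chrm1 (chr19:8663789-8683587) was lowest in female L6S1 libraries B and C. Its counts in female L6S1 A, B and C were 22, 11 and 4, or 1.34, 0.478 and 0.167 CPM, against 1.54, 0.976 and 1.60 CPM in female L345 B, C and D. In males it had 1.39, 0.888 and 1.58 CPM in L6S1 A, B and C, against 1.74, 1.62 and 0.924 CPM in L345 A, B and C. Groups overlapped in both sexes. The log2 fold change was -0.63 ± 0.37 over both sexes (95% interval -1.42 to 0.16; edgeR adjusted p = 0.280). Within females it was -1.12 ± 0.54, with an edgeR adjusted p of 0.218. The values rested on single libraries. Without female L6S1 A, the library with the lowest total count, the fold change was -1.11 over both sexes (edgeR adjusted p = 0.0248). In that fit 4031 of 15683 genes passed. Without B and C the fold change was -0.09. Female L6S1 B and C also stood apart in marker sums. They had the lowest sums of satellite glia markers, 921 and 1030 CPM, as against 1330 to 1870 CPM in the other 10 libraries. They had the highest sums of Schwann cell markers, 3930 and 3820 CPM (2420 to 3040 CPM in the others), and of peptidergic neuron markers, 15900 and 15700 CPM (8960 to 13500 CPM in the others). Of the 6 Schwann cell markers tested, 0 passed between levels, and their median log2 fold change was -0.392. Their sum thus does not stand for every marker. The part of these marker sums in the result for Chrm1 was not tested.

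The M3 receptor gene Chrm3 (chr13:9875486-10360844) had few reads in every library and fewest at L6S1. Its counts in female L6S1 A, B and C were 1, 1 and 4, against 12, 5 and 10 in female L345 B, C and D. Its counts in male L6S1 A, B and C were 3, 3 and 2, against 16, 7 and 4 in male L345 A, B and C. Within each sex every L6S1 library lay below every L345 library in CPM. Of 15835 genes with a read in every library, 9.69% lay fully below in females and 11.9% in males. Over both sexes the ranges met, at 0.0434 to 0.167 CPM in L6S1 and 0.161 to 0.755 CPM in L345.

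Summed over libraries, Chrm3 had 14 counts at L6S1 and 54 at L345, a ratio of 0.271 in counts (95% interval 0.139 to 0.495, covering counting error only). An exact two-sided permutation test of TMM-scaled CPM over the 6 L6S1 and 6 L345 libraries gave p = 0.00433, where the smallest p the design allows is 0.00216. That test was added after seeing the data, is not adjusted over other genes, and pools the sexes. The ratio rests on few reads, since 5 of 6 L6S1 libraries had at most 3 counts, as against 0 of 6 at L345. Fitted with no filter on low counts, the log2 fold change was -1.87 ± 0.60 (edgeR adjusted p = 0.0648). In the fits with a filter it could enter only through its L345 libraries, so those fits are not given as support.

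The alpha1 receptor genes were near the detection limit. Adra1d (chr2:131545850-131562283) had 3 to 8 counts per library at L6S1 and 4 to 12 at L345. In females it had 0.488, 0.217 and 0.167 CPM in L6S1 A, B and C, against 0.225, 0.351 and 0.371 CPM in L345 B, C and D. In males it had 0.238, 0.127 and 0.226 CPM in L6S1 A, B and C, against 0.472, 0.203 and 0.482 CPM in L345 A, B and C. The groups overlapped, with female L6S1 A the highest of all 12 libraries, and the log2 fold change was -0.57 ± 0.40 (95% interval -1.43 to 0.29; edgeR adjusted p = 0.365). Adra1a (chr14:66635251-66733462) had 2, 0 and 4 counts in female L6S1, 0, 1 and 1 in female L345, 1, 0 and 1 in male L6S1 and 3, 0 and 6 in male L345. With 8 counts in all at L6S1 and 11 at L345 and no read in 4 libraries, a difference in Adra1a was not detectable at this depth (exact two-sided permutation p = 0.792).

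Of the alpha2 receptor genes, Adra2a (chr19:54045182-54048982) lay above the L345 mean of its sex in 5 of 6 L6S1 libraries and did not pass the test. In females it had 0.610, 0.434 and 0.712 CPM in L6S1 A, B and C, against 0.262, 0.586 and 0.631 CPM in L345 B, C and D. In males it had 1.23, 0.973 and 0.789 CPM in L6S1 A, B and C, against 0.424, 0.304 and 0.563 CPM in L345 A, B and C. The male groups did not overlap, a state that 12.2% of all genes with a read in every library shared in that direction, and the female groups did. Counts were low, 10 to 31 per library at L6S1 and 6 to 17 at L345. The log2 fold change was 0.72 ± 0.31 over both sexes (95% interval 0.05 to 1.39; unadjusted p = 0.0376, edgeR adjusted p = 0.167).

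Within the sexes, the log2 fold change of Adra2a was 0.25 ± 0.45 in females (edgeR adjusted p = 0.759) and 1.19 ± 0.44 in males (edgeR adjusted p = 0.511). The difference between these effects, female minus male, was -0.94 ± 0.63 (edgeR adjusted p = 0.871). In males 34 genes (0.222%) passed and in females 55 (0.36%), with 0 receptors among them in either sex. With limma-voom and quality weights, Adra2a was the 1 receptor that passed in males (limma adjusted p = 0.0334). The share of all genes that passed in males with limma-voom is not given here. Over both sexes 3268 of 15281 genes passed with it, against 356 in the main fit. Over both sexes its log2 fold change lay between 0.56 and 1.12 in the 22 alternatives in which it was fitted, and it never passed. These fits reuse the same libraries, so the steady sign is not separate support. Chrm1, Adra1d and Adra2c kept their sign in all alternatives as well.

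Adra2b (chr2:127363208-127367221) and Adra2c (chr5:35278566-35281761) gave no difference between levels past the spread of libraries. Adra2b had 4.33, 4.86 and 2.89 CPM in female L6S1 A, B and C, against 3.07, 1.44 and 3.41 CPM in female L345 B, C and D. It had 2.34, 1.4 and 4.29 CPM in male L6S1 A, B and C, against 2.50, 4.36 and 4.78 CPM in male L345 A, B and C. Its level was thus as variable within groups as between them, and the log2 fold change was 0.03 ± 0.29 (95% interval -0.59 to 0.66; edgeR adjusted p = 0.947). By sex it was 0.60 ± 0.42 in females and -0.53 ± 0.42 in males, a female minus male difference of 1.14 ± 0.59 (95% interval -0.12 to 2.39; unadjusted p = 0.0730, edgeR adjusted p = 0.871). Adra2c had 1.16, 0.955 and 0.754 CPM in female L6S1 A, B and C, against 0.787, 0.976 and 1.67 CPM in female L345 B, C and D. It had 1.23, 1.18 and 1.5 CPM in male L6S1 A, B and C, against 1.18, 0.507 and 0.884 CPM in male L345 A, B and C. The ranges overlapped in both sexes, and the log2 fold change was 0.17 ± 0.28 (95% interval -0.43 to 0.76; edgeR adjusted p = 0.720). It was -0.27 ± 0.39 in females and 0.60 ± 0.39 in males, which differed by -0.87 ± 0.55 (95% interval -2.06 to 0.31; unadjusted p = 0.137, edgeR adjusted p = 0.871). Together the 3 alpha2 genes summed to 1.4 ± 0.307 RPKM at L6S1 and 1.25 ± 0.303 RPKM at L345 (SD, n = 6 each).

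**Figure D2:**
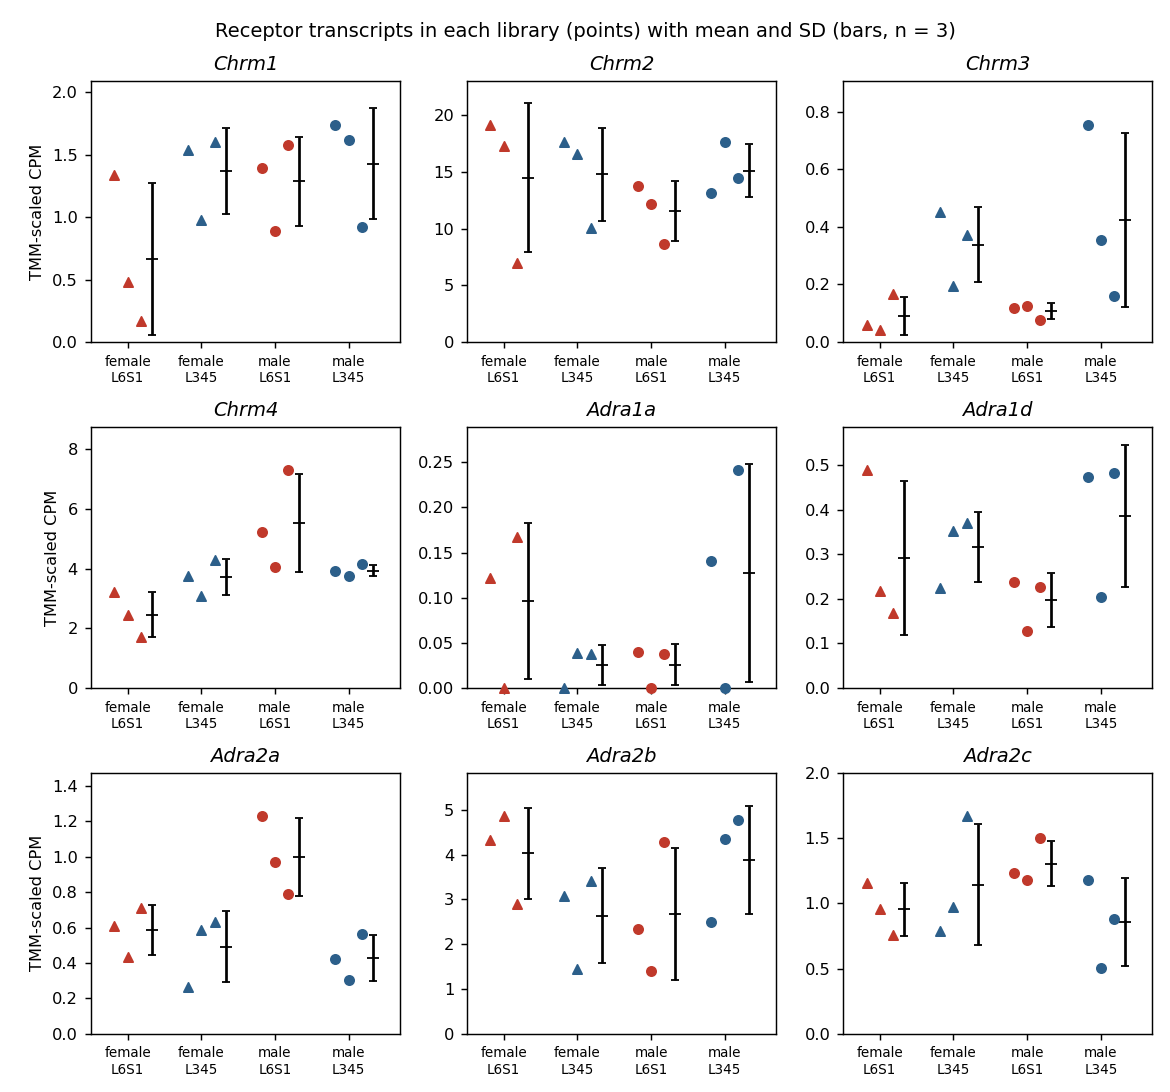
TMM-scaled CPM of the 9 receptor genes in every library (points; triangles female, circles male; red L6S1, blue L345), with the mean and SD of the 3 libraries of each group beside them; each panel has its own axis from 0. Chrm4 lies between 1.72 and 3.23 CPM in female L6S1 and between 4.06 and 7.29 CPM in male L6S1 libraries, and Chrm3 stays at or below 0.167 CPM in all L6S1 libraries.

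**Figure D3:**
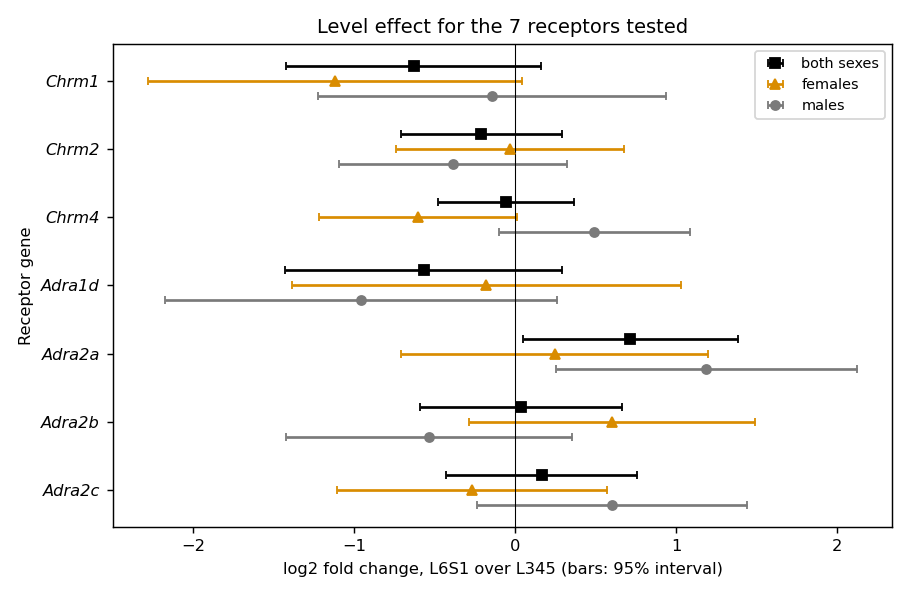
Log2 fold change of the 7 receptors tested, L6S1 over L345, with 95% intervals from the edgeR fit, over both sexes (squares), in females (triangles) and in males (circles). The interval over both sexes excludes 0 for Adra2a alone (0.05 to 1.39), before adjustment over all genes.

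Of 5 other receptors of these families, 2 entered the test between levels and 0 passed, where 2.33% of all genes did. With 2 genes tested, this says little on the families. Adrb1, a beta receptor that couples to Gs and raises cyclic AMP, had 0.584 ± 0.292 CPM at L6S1 and 0.748 ± 0.235 CPM at L345 (SD, n = 6 each; log2 fold change -0.46 ± 0.31, edgeR adjusted p = 0.338). Chrm5 had 3 reads over all 12 libraries, Adra1b 5 and Adrb3 1, too few to compare.

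The genes that make, move and break down the ligands gave 1 call. Maob, which encodes a monoamine oxidase that breaks down amines, rose at L6S1. Its lowest, median and highest values were 1.54, 3.81 and 8.33 CPM at L6S1, against 0.849, 1.41 and 2.23 CPM at L345. Ranges overlapped. All 6 L6S1 libraries lay above the L345 mean of their sex, and the log2 fold change was 1.51 ± 0.32 (edgeR adjusted p = 0.0316). It was the 1 gene of 4 tested in a list of 9 noradrenaline genes to pass, where 1.45% of all genes rose. Other genes of that list were well above the floor and did not pass. Th had 761 to 1140 CPM at L6S1 and 475 to 806 CPM at L345. Over all libraries Maoa had 116 to 211 CPM and Slc18a2 12.5 to 32.2 CPM. Dbh, the enzyme that makes noradrenaline, had 24 reads over all libraries, and Slc6a2, the noradrenaline transporter, had 2. Of the list of 5 acetylcholine genes 3 entered the test and 0 passed. Ache, which splits acetylcholine, had 37.1 ± 15.8 CPM at L6S1 and 31.8 ± 6.64 CPM at L345 (log2 fold change 0.21 ± 0.28, edgeR adjusted p = 0.647), and Bche, which also splits it, 10.8 ± 4.36 CPM at L6S1 and 8.45 ± 2.75 CPM at L345 (0.35 ± 0.24, edgeR adjusted p = 0.352). Chat, which makes acetylcholine, had 6 reads, all in female L6S1 B.

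The signalling genes downstream of these receptors gave 5 calls, all lower at L6S1. They serve many other receptors as well. In the list of 23 genes of the Gi and Go pathway, 22 were tested, 3 fell (0.877% of all genes tested did) and 0 rose. The median log2 fold change was -0.346, against -0.0572 for all genes tested. Such a median is not particular to signalling genes, here or in the lists below. It was -0.392 for the Schwann cell markers and -0.357 for the non-peptidergic neuron markers, but 0.461 for the peptidergic ones. Gnao1, the alpha subunit of Go and the leading one of its kind in neurons, had 362, 485.5 and 513 CPM (lowest, median, highest) at L6S1, against 516.5, 645 and 683 CPM at L345. The groups did not overlap, as for 1.18% of genes with a read in every library, and the log2 fold change was -0.49 ± 0.11 (edgeR adjusted p = 0.0381).

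Gnai2, an alpha subunit of Gi, had 83.9, 106 and 134 CPM at L6S1, against 118, 168.5 and 201 CPM at L345, and the log2 fold change was -0.60 ± 0.13 (edgeR adjusted p = 0.0320). Its groups overlapped, since the female L345 libraries were the lower ones of their level. Adcy1, an adenylyl cyclase that makes cyclic AMP, had 3.60, 6.31 and 6.60 CPM at L6S1, against 7.81, 9.59 and 11.1 CPM at L345. Its groups did not overlap, as for 1.18% of genes with a read in every library in that direction. Its log2 fold change was -0.73 ± 0.16 (edgeR adjusted p = 0.0327). Of the potassium channel subunits that Gi opens, Kcnj5 had no read in any library. Kcnj3 had 13.6 CPM (male L6S1 C) to 30.7 CPM (male L345 B). Kcnj6 and Kcnj9 had reads in every library, at up to 1.27 and 1.13 CPM. None of the channel genes of the list passed.

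In the list of 23 genes of the Gq pathway, 20 were tested, 1 fell (0.877% of all genes tested did) and 0 rose. The median log2 fold change was -0.291, against -0.0572 for all genes tested. The gene that fell was Itpr1, the receptor for inositol trisphosphate that releases calcium from stores. It had 4.10, 4.96 and 6.17 CPM at L6S1, against 8.00, 8.35 and 9.53 CPM at L345. The groups did not overlap, as for 1.18% of genes with a read in every library in that direction. The log2 fold change was -0.74 ± 0.15 (edgeR adjusted p = 0.0220). Of 7 genes for kinases and arrestins that switch off active receptors, 1 fell (0.877% of all genes tested did) and 0 rose. Their median was -0.380. The gene that fell was Grk3, a kinase of agonist-bound receptors. It had 10.8, 12.1 and 14.2 CPM at L6S1, against 16.7, 20.0 and 24.7 CPM at L345. Its groups did not overlap either, again as for 1.18% of genes with a read in every library. The log2 fold change was -0.72 ± 0.15 (edgeR adjusted p = 0.0256).

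Each of these 5 genes was lower in 6 of 6 L6S1 libraries than the L345 mean of its sex, and none passed within a sex. They and Maob were named because they passed over these same libraries. Their side of the L345 mean and any lack of overlap are thus not separate support. The calls were not firm. With 1 library left out at a time, Grk3 passed in 6 of 12 fits, Maob, Gnai2 and Adcy1 in 5, Itpr1 in 4 and Gnao1 in 2, and the highest edgeR adjusted p was 0.0897 for Grk3 and 0.125 for Gnao1. Gnai2 was the 1 gene of the 6 that passed with the submission as a term (-0.67, edgeR adjusted p = 0.0285), and Maob the 1 that passed without female L6S1 B and C (1.61, edgeR adjusted p = 0.0250). In the first submission by itself all but Adcy1 passed (Adcy1 -0.60, edgeR adjusted p = 0.0712). Offsets for GC content and length took Itpr1, Gnao1 and Adcy1 to -0.47, -0.25 and -0.41 (edgeR adjusted p = 0.0558, 0.133 and 0.0879). The fibroblast marker Dcn rose at L6S1, with 213 ± 70.8 CPM at L6S1 and 64.3 ± 9.71 CPM at L345 (1.67 ± 0.14, edgeR adjusted p = 1.91e-05), as did the macrophage marker C1qb with 4.62 ± 3.17 CPM at L6S1 and 0.990 ± 0.260 CPM at L345 (2.21 ± 0.38, edgeR adjusted p = 0.00982). Neuron markers moved as well. Of 6 peptidergic neuron markers tested, 3 rose at L6S1 (Tac1, Trpv1 and Gal), where 1.45% of all genes tested rose. The list summed to 9960 to 15900 CPM at L6S1 and 8960 to 10100 CPM at L345. Of 7 non-peptidergic markers tested, 1 fell (Lpar3), where 0.877% of all genes tested fell. That list summed to 1380 to 1880 CPM at L6S1 and 1640 to 2250 CPM at L345. The part of these cell types and neuron classes in the results for Maob and the 5 lower genes was not tested.

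**Figure D4:**
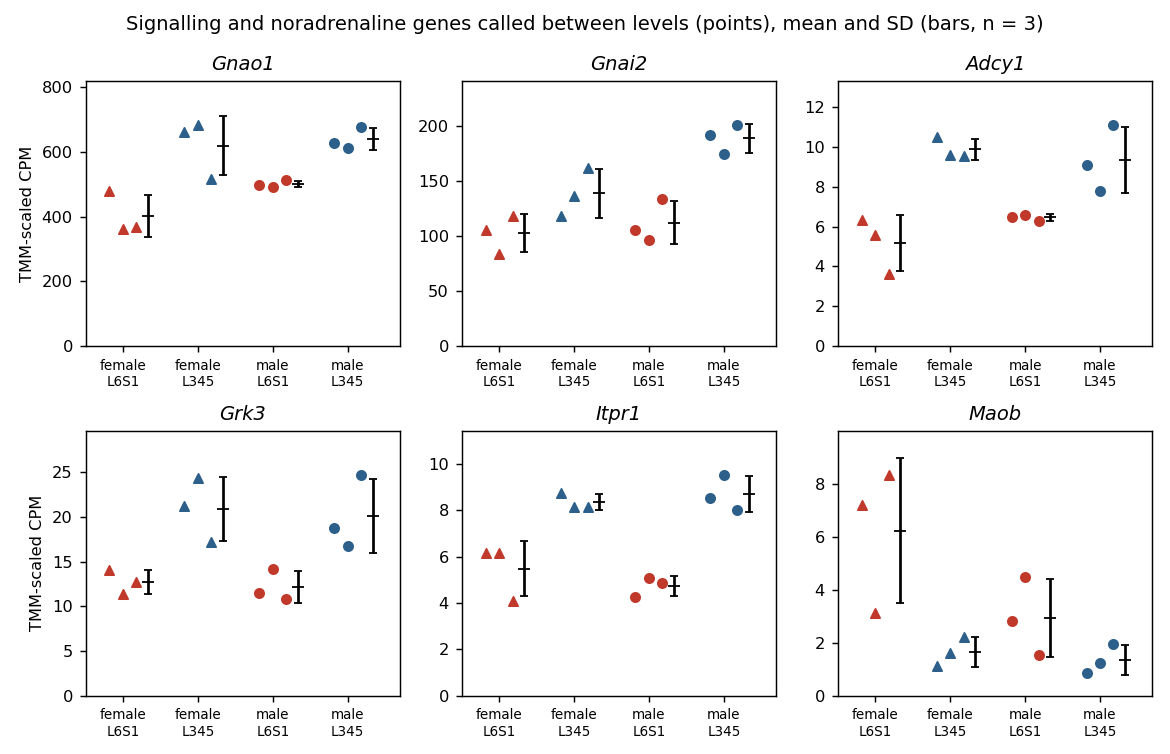
TMM-scaled CPM of the 5 signalling genes that fell and of Maob, which rose, in every library (points; triangles female, circles male; red L6S1, blue L345), with the mean and SD of each group of 3 beside them; axes start at 0. Gnao1 lies at 362 to 513 CPM in L6S1 and 516.5 to 683 CPM in L345 libraries, and Maob is highest in female L6S1 C at 8.33 CPM.

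For Chrm2 and Chrm4, the genes with the most similar values over the 12 libraries were sought among 11665 genes, by Pearson's r of log2 CPM. They are a description, since all points share libraries and depth. For Chrm2 these were Zfp449 (r = 0.950), Ttc37 (r = 0.949) and Cdc27 (r = 0.936). For Chrm4 they were Hook2 (r = 0.926), Tpt1 (r = 0.911) and Larp6 (r = 0.908). The 2 receptors shared none of these genes.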

How the data were processed

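Per the submitters' processing notes, alignment used Subread and counting featureCounts 1.4.5, on GRCm38.p2; libraries were made with a SMARTer Ultra Low kit from 10 ng of RNA and 12 cycles of PCR, per the labels' protocols. The authors deposited counts, CPM and RPKM per gene; the counts, unscaled whole numbers, were the only values tested, and the deposited CPM and RPKM were not used. GENCODE M21 gave symbols for 40254 of 41388 genes (97.3%). Genes were fitted with edgeR 4.0.16 (R 4.3.3; TMM, filterByExpr, robust quasi-likelihood) with a mean for each of the 4 groups (8 residual degrees of freedom, common biological coefficient of variation 0.239), and p-values adjusted over all 15281 genes. The level contrast weighted the sexes equally. Alternatives used DESeq2 1.42.0, limma 3.58.1 and the settings named in the closing section. The labels disagree on the pool of male L345 C (3 or 5 mice). Receptors and lists were chosen with earlier results of these data known. Named list genes were the called members or else the 2 with the highest mean CPM. Other genes were named after their counts were seen: Dbh, Slc6a2, Th, Maoa, Slc18a2, Chat, Chrm5, Adra1b, Adrb3, Kcnj3, Kcnj5, Kcnj6, Kcnj9 and Phox2a. Intervals of counts and the 3-count floor cover counting error only. No pair of libraries within a group was alike to within sampling noise (chi-square per degree of freedom 9.76 to 128). The fit was also tested on simulated data with independent libraries and no submission effect. That test therefore does not bear on effects of submission or shared preparation here. Some items that these rules select are not reported here.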

Additional observations from a re-analysis of the deposited data

Results flagged for a closer look

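In 2 of 30 groups of 6 libraries checked, 1 library stood far from the other 5, where chance gives about 5% of groups. Adra1d had 0.488 CPM in female L6S1 A, and the next L6S1 library had 0.238 CPM. The gap was 0.693 of the range of the group, against a critical value of 0.625, and the value rests on 8 counts. Adcy1 had 3.60 CPM in female L6S1 C, and the next L6S1 library had 5.60 CPM, with a gap of 0.667 of the range. Female L6S1 C also had the highest sum of macrophage markers, 22.4 CPM, and its part in the value was not tested. The level effect on Chrm4 ran in opposite directions, with all 3 female L6S1 libraries below the female L345 mean and all 3 male L6S1 libraries above the male L345 mean. The difference of effects, female minus male, was -1.10 on the log2 scale and missed the test (edgeR adjusted p = 0.871).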

How the results depend on the processing

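The count of receptors that passed was 0 in every contrast and under all alternatives except those named here. Without female L6S1 A, 2 of 8 receptors tested passed over both sexes (Chrm1 and Chrm3), where 4031 of 15683 genes did. In females 1 passed (Chrm1), and 1 passed between females and males (Chrm4, edgeR adjusted p = 0.0360). The all-gene counts of that fit in females and between the sexes are not given here. Chrm3 entered that fit only through its L345 libraries, so its call supports nothing. Counted with it, the ranges with 1 library left out were 0 to 2, 0 to 1 and 0 to 1. With limma-voom, 1 passed in males, where the all-gene count is not given here. The count over all genes, 356, depended on the setting: 1519 with DESeq2, 3268 with limma-voom, 841 with no filter on low counts, 125 with the submission as a term, 137 without female L6S1 B and C, 749 with GC and length offsets, and 80 to 4031 with 1 library left out, the highest without female L6S1 A and 883 without female L345 D. Of the 356, 123 also passed with the submission as a term; the causes were not tested. Log2 fold changes near 0 that missed the test changed sign in some fits: Chrm2 to 0.0055 and Adra2b to -0.16 with the submission as a term, Chrm4 to 0.068 and Adra2b to -0.069 in the first submission by itself, and Chrm4 to 0.14 without female L6S1 B and C. With 1 library left out, Chrm4 lay between -0.17 and 0.057 and Adra2b between -0.21 and 0.19. A replicate block on the library letters gave 1985 genes (1024 with GC and length offsets) and changed no receptor's call, 0 with and without it. The letters were not taken as pairs in the main fit, and the correlations between libraries do not settle whether they should be. Of same-letter pairs, 7 of 15 had a correlation over 0.1 (range -0.199 to 0.311), among them 5 of 6 pairs of B libraries (0.195 to 0.311). Of different-letter pairs, 5 of 39 had (range -0.332 to 0.338). Not every library correlated best with its own letter (male L345 A with female L6S1 C, 0.139). Whether same-letter libraries shared a preparation was not tested, and the main fit does not allow for it. The fit without female L6S1 B and C and the fits of the first submission leave 1 female L6S1 library, assumed to vary like the others. The replicate block with offsets, the permutation tests and the settings for Maob and the 5 lower signalling genes were added after seeing the data. Low depth limits Chrm3, Adra1a and Adra1d.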
